A study of Nomascus leucogenys with 9 samples.

Results

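Interferon regulatory factors (IRFs) are transcription factors that share a DNA-binding domain with conserved tryptophans and bind GAAA-containing elements in interferon genes and interferon-stimulated genes. In B cells some members act downstream of virus sensing, and others set the programme of activated and differentiating cells. Epstein-Barr virus (EBV), which immortalises B lymphocytes, engages several of them in human cells. The roles given below are known from human and mouse cells and were not measured here.

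The family was followed in RNA-seq of lymphoblastoid lines (lymphocytes immortalised with EBV) from 9 northern white-cheeked gibbons (Nomascus leucogenys), 1 library per line and 1 line per animal. Each line carries the name of its animal in the labels: Asia, Vok, Ricky, Phyllis, Nancy, Melouprey, Khao, China and Bobby. They form 1 group, with no treatment and no contrast in the labels, so the comparisons are between members and between lines. Animal, culture and transformation event coincide in a line and cannot be told apart. Members were chosen by human Ensembl gene identifier, without use of their values, though with earlier results of these data known. Of 8 identifiers, 7 had a row in the table of 15356 rows: IRF1 (ENSG00000125347), IRF2 (ENSG00000168310), IRF3 (ENSG00000126456), IRF4 (ENSG00000137265), IRF5 (ENSG00000128604), IRF8 (ENSG00000140968) and IRF9 (ENSG00000213928). ENSG00000185507 (IRF7, the inducer of type I interferon genes that EBV latency is known to engage) matched no row and is not analysed here. Its symbol, like the others, belongs to a protein-coding gene in the RefSeq gene table of the gibbon assembly Asia_NLE_v1. All 7 rows passed a filter on low values, which kept 12590 rows.

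Values are log2 levels as the authors scaled them, with the base of the logarithm assumed. They are also given in parts per 1000000 (ppm) of a line's summed linear values. These sums were between 13728358 and 14059842, so the libraries had already been put on a common scale, and the sequencing depth is unknown. Whether the values were divided by transcript length is not stated in the sources and was not tested. The levels of different members therefore have no order here, and each member is compared only with itself across lines. The table pairs no identifier with a gene name, so marker genes of B cells and of other cell types, the partners of the IRFs and their target genes were not analysed here. Asia and Vok stood apart over the whole table: Asia was the highest line in 22.6% of kept rows and the lowest in 14.0%, and Vok in 21.7% and 17.1%. The median absolute deviation from the row median was 0.20 log2 units in Asia and 0.21 in Vok, against 0.070 to 0.14 in the other lines. The main results that rest on either line are given with and without it.

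IRF8 was the one member that differed widely between lines, and the difference was mostly a low level in Asia. The other 6 members stayed within less than 2-fold over the 9 lines. IRF3 varied least, and IRF4, a factor of activated B cells, was within 1.51-fold in all lines. The members did not share a highest line: 3 of them (IRF1, IRF4 and IRF5) were highest in Phyllis, whereas IRF8 and IRF9 were highest in Khao.

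**Figure D1:**
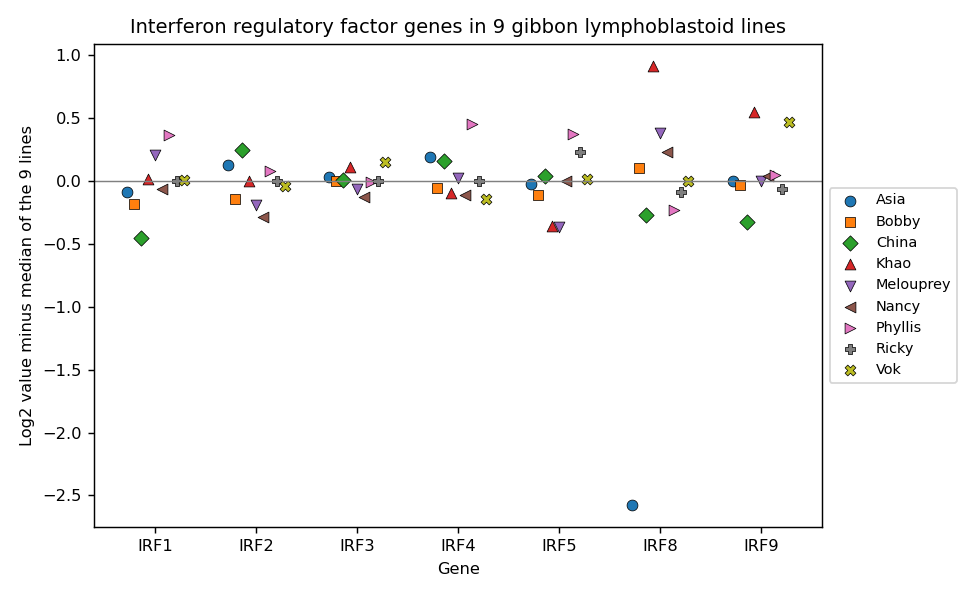
Each point is the log2 value of 1 gene in 1 line minus the median of that gene over the 9 lines; colours and shapes mark the lines. IRF8 in Asia lies 2.57 log2 units below its median, whereas the largest deviation in any other member is 0.55 log2 units, for IRF9 in Khao.

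The lymphoid members IRF4 and IRF8 are close relatives that pair with the ETS factors PU.1 and Spi-B at shared DNA elements. IRF8 is prominent in germinal-centre B cells, and IRF4 drives class switching and plasma cell differentiation and is needed for the survival of human lymphoblastoid lines. IRF8 had a log2 value of 8.31 in Asia, 11.00 in Bobby, 10.62 in China, 11.80 in Khao and 11.27 in Melouprey. It had 11.12 in Nancy, 10.66 in Phyllis, 10.80 in Ricky and 10.89 in Vok. Asia was the lowest line, and Khao was the highest.

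On the linear scale IRF8 took 22.8 ppm in Asia, against 112.2 ppm in China, the next lowest line, and 255.9 ppm in Khao. The mean was 10.72 ± 0.97 log2 units (SD, n = 9) and the full range was 11.2-fold. Asia was 6.18-fold below the median of the other 8 lines and 4.93-fold below China. Whether fewer cells of a type or less RNA per cell gives such a difference cannot be told apart in bulk RNA. One library stands for Asia, so the difference between it and the other lines has no replicate check.

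**Figure D2:**
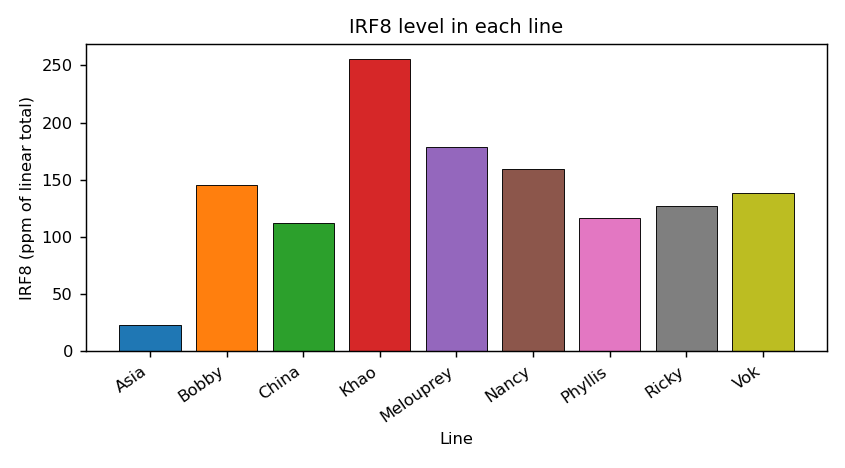
Bars give the IRF8 level of each line in ppm of the line's linear total, 1 library per line, with no error bar because a line was measured once. Asia stands at 22.8 ppm and the other lines lie between 112.2 and 255.9 ppm.

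A gap of this size in the same direction was rare. Dixon's criterion for 9 values, which compares the gap of the extreme value with the whole range, placed Asia outside the other lines for IRF8 and named no outlying line in the other 6 members. It named one in 10.1% of all kept rows, and Asia as the outlying low line in 1.03%. Of the 12590 kept rows, IRF8 included, 15 had Asia at least as far below the median as IRF8, and 2 had Asia lowest by a gap at least as wide. IRF8 and Asia were singled out after their values were seen, so these counts are a description and not a test. The deviation of Asia over all kept rows was also the widest (root mean square 0.54 log2 units, against 0.22 to 0.42 in the other lines), and its part in the IRF8 value was not tested. In the other 6 members the root mean square deviation of Asia was 0.10 log2 units, within the 0.098 to 0.29 of the remaining lines.

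Without Asia, IRF8 still had the widest range of the family. The 8 lines then averaged 11.02 ± 0.39 log2 units (SD, n = 8) and spanned 2.28-fold. Khao stood 0.53 log2 units above Melouprey, the next highest line, and Dixon's criterion no longer named an outlying line. The lines spanned 2-fold or more in 1 of 7 members, against 26.4% of kept rows. Without Asia they again did so in 1 of 7, against 22.1%.

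IRF4 had a lowest log2 value of 14.39 in Vok, a median of 14.53 and a highest value of 14.99 in Phyllis. The mean was 14.58 ± 0.19 log2 units (SD, n = 9), or 1769 ± 251.3 ppm. Phyllis reached 2333 ppm, and the other lines lay between 1566 and 1937 ppm. Without Phyllis the range of IRF4 was 0.33 log2 units, against 0.59 with it, so 1 line accounts for much of the spread. Without Vok the range was 0.57 log2 units.

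The difference between IRF4 and IRF8 within a line does not depend on the scaling between lines. Its absolute size may include unequal transcript lengths, so only its change between lines is described. IRF4 minus IRF8 was 6.41 log2 units in Asia, 2.63 in Khao and between 3.28 and 4.33 in the other 7 lines. The mean was 3.86 ± 1.07 log2 units (SD, n = 9). The ratio of IRF4 to IRF8 therefore spanned 13.7-fold, or 3.24-fold without Asia. Asia had the highest difference and Khao the lowest.

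Among the members that act in virus sensing, IRF3 is held latent in the cytoplasm and, once phosphorylated, induces interferon beta. IRF5 acts downstream of Toll-like receptors through MyD88. IRF3 had a lowest log2 value of 10.40 in Nancy, a median of 10.52 and a highest value of 10.68 in Vok. The mean was 10.54 ± 0.083 log2 units (SD, n = 9), and the lines spanned 1.21-fold, or 1.18-fold without Vok. Of 1710 rows whose mean lay within 0.5 log2 units of that of IRF3, 4.04% had a smaller SD. A range under 0.5 log2 units, found for IRF3 alone in the family, occurred in 28.2% of kept rows.

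IRF5 had a lowest log2 value of 9.67 in Melouprey, a median of 10.04 and a highest value of 10.41 in Phyllis. Khao was almost as low as Melouprey, at 9.68, and Ricky was the second highest line, at 10.27. The mean was 10.01 ± 0.24 log2 units (SD, n = 9), the range was 1.67-fold, and 66.0% of rows of like level had a smaller SD. Its spread was shared by several lines at both ends rather than set by 1 line.

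IRF1 and IRF2 were the first members described, an activator induced by interferons and a factor that competes with it at the same elements. IRF1 had a lowest log2 value of 10.12 in China, a median of 10.58 and a highest value of 10.95 in Phyllis (mean 10.56 ± 0.23, SD, n = 9). IRF2 had a lowest log2 value of 10.65 in Nancy, a median of 10.93 and a highest value of 11.18 in China (mean 10.91 ± 0.17, SD, n = 9). China was thus the lowest line for IRF1 and the highest for IRF2.

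The within-line difference of IRF1 minus IRF2 was -1.06 log2 units in China, between -0.57 and -0.070 in 7 lines and 0.041 in Melouprey. It averaged -0.35 ± 0.32 log2 units (SD, n = 9), and the ratio of IRF1 to IRF2 spanned 2.14-fold. Dixon's criterion did not place China outside the other lines.

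IRF9 is a DNA-binding factor that acts in the response to type I interferon. Its level was near the filter of 1 ppm, at 1.64 ± 0.33 ppm (SD, n = 9). The log2 value was 4.96 in Khao and 4.88 in Vok, and between 4.09 in China and 4.46 in Phyllis in the other 7 lines. Khao and Vok were thus the highest lines. Dixon's criterion named neither with all lines present, but named Vok when Khao was left out and Khao when Vok was left out. Adding 1 ppm to all values before the logarithm lowered the range of IRF9 to 0.54 log2 units, against 0.87 as deposited, so folds between lines are uncertain at this level.

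The spread of the family as a whole resembled that of the table. The median SD was 0.23 log2 units for the 7 members, against 0.22 for all kept rows, and the median range was 0.74, against 0.68. For IRF8, 99.6% of 1536 rows of like level had a smaller SD, and 92.0% did when Asia was left out. For IRF1, IRF2, IRF4 and IRF9 this share lay between 37.2% and 61.7%. limma's variance test, which sets the variance of a row against that of rows of like level, called 0 of 7 members after Benjamini-Hochberg adjustment over all kept rows, and 0% of the 12590 rows. IRF8 had the smallest p of the family (limma, unadjusted p = 0.0126, adjusted p = 0.904), and it was the single member under 0.05 unadjusted, as were 658 of all kept rows. The spread of variances over the table leaves the test little power, so a count of 0 does not show that the members vary alike.

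Phyllis was the highest line for 3 of 7 members, IRF1 at 141.8 ppm, IRF4 at 2333 ppm and IRF5 at 97.7 ppm. It was the highest line in 7.85% of all kept rows. The other members had their maximum in Khao (IRF8 and IRF9), China (IRF2) and Vok (IRF3). Phyllis was singled out after its values were seen, and no test was made.

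Across lines, no pair of members had a correlation that passed the exact permutation test. Of 21 pairs, 10 had a positive and 11 a negative Pearson r, from -0.47 (IRF2 and IRF8) to 0.65 (IRF3 and IRF9). None had an unadjusted two-sided exact permutation p under 0.05. None passed after Benjamini-Hochberg adjustment over the 88102 relations of the members with every kept row, where the smallest adjusted p of a pair was 0.934. None of the 88102 relations passed. The number of pairings of 9 lines sets a floor to the exact permutation p. With adjustment over 88102 relations, the adjusted test therefore has little power. Its lack of calls does not show that the members are unrelated. An r of at least 0.7 was found in 0 of 21 pairs, against 1.99% of all relations between a member and another row. An r of -0.7 or below was also found in 0 of 21 pairs, against 2.24%. IRF8 alone gave 1115 of the 1975 relations behind the latter share and 522 of the 1758 behind the former. With 21 pairs, a count of 0 cannot be told apart from either share.

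**Figure D3:**
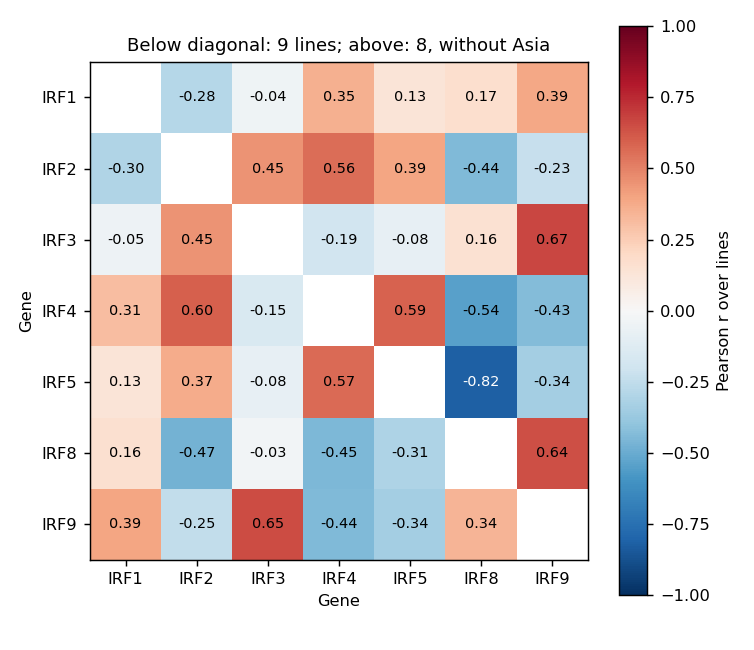
Each cell gives Pearson's r between 2 members over the lines, over all 9 lines below the diagonal and over 8 lines, without Asia, above it. The cell for IRF5 and IRF8 changes most, with -0.31 over 9 lines and -0.82 over 8.

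IRF3 and IRF9 had the highest r, 0.65 (exact permutation p = 0.0585, adjusted p = 0.934), but their ranks agreed less, with rho = 0.28 (exact permutation p = 0.463, adjusted p = 1). Without Vok and Nancy, the lines farthest from the median of IRF3, r was 0.68, and with each line left out in turn it lay between 0.47 (without Vok) and 0.79 (without Nancy). IRF2 and IRF4 had r = 0.60 (exact permutation p = 0.0895, adjusted p = 0.949) and rho = 0.67 (exact permutation p = 0.0589, adjusted p = 1). Without Nancy and China, r was 0.57, and without Asia r was 0.56 and rho was 0.60. For IRF4 and IRF5 the value of r was 0.57 (exact permutation p = 0.115, adjusted p = 0.953), with rho = 0.28 (exact permutation p = 0.463, adjusted p = 1). It was 0.13 without Phyllis and Asia, 0.16 without Phyllis alone and 0.59 without Asia alone, so this relation rested on Phyllis.

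Leaving out Asia changed r of IRF8 most with IRF5 and with IRF9 (0.64 without Asia, 0.34 over 9 lines), and by less than 0.1 with IRF1, IRF2 and IRF4. IRF5 and IRF8 had r = -0.31 over 9 lines (exact permutation p = 0.418, adjusted p = 0.994) and rho = -0.65 (exact permutation p = 0.0666, adjusted p = 1). Without Phyllis and Melouprey, the lines farthest from the median of IRF5, r was again -0.31. Without Asia, a choice made after the data were seen, r was -0.82 (exact permutation p = 0.00942, adjusted p = 0.9998, n = 8) and rho was -0.88 (exact permutation p = 0.00724, adjusted p = 1, n = 8). In those 8 lines Khao and Melouprey were highest in IRF8 and lowest in IRF5, and Asia, lowest in IRF8, had a middle level of IRF5 (10.01 log2 units). Neither value held after adjustment over all relations, a test with still less power at n = 8 than over 9 lines.

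IRF2 and IRF8 had opposite rank orders, with rho = -0.80 (exact permutation p = 0.0138, adjusted p = 1) but r = -0.47 (exact permutation p = 0.212, adjusted p = 0.982). Without Nancy and China r was -0.63, and without Asia rho was -0.74 (exact permutation p = 0.0458, adjusted p = 1, n = 8). IRF4 and IRF8 had r = -0.45 (exact permutation p = 0.173, adjusted p = 0.978) and rho = -0.63 (exact permutation p = 0.0760, adjusted p = 1), with r = -0.47 without Phyllis and Asia. With each line left out in turn, r was lowest without Phyllis, at -0.72 (exact permutation p = 0.0160, adjusted p = 0.728, n = 8). With each other line left out it lay between -0.38 (without Khao) and -0.54 (without Asia, where rho was -0.52). No relation of IRF8 with a family member passed the adjusted test, which has little power with so few lines.

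**Figure D4:**
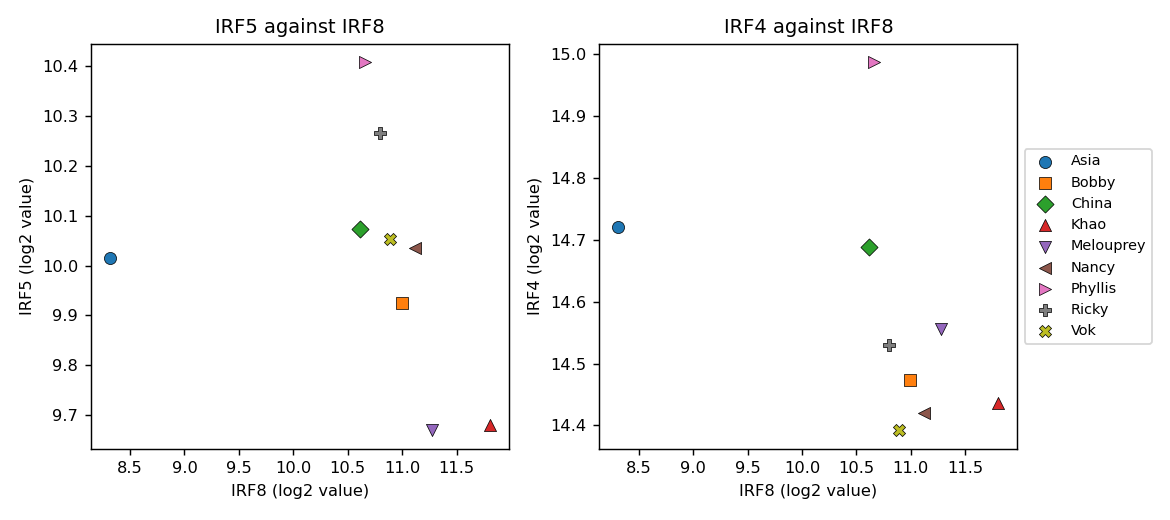
Each point is 1 line, with the log2 value of IRF8 on the horizontal axis and that of IRF5 (left) or IRF4 (right) on the vertical axis. Asia lies alone at 8.31 for IRF8, and among the other 8 lines IRF5 is lowest in Melouprey and Khao, the lines with the most IRF8.

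Over 9 lines, 522 of the 12589 other rows had r of at least 0.7 with IRF8 (4.15%) and 1115 had r of -0.7 or below (8.86%). For the other members, between 65 (IRF5) and 282 (IRF1) rows reached 0.7 and between 58 (IRF5) and 287 (IRF1) reached -0.7 over 9 lines. Without Asia the order turned: 334 and 376 rows did so for IRF8, against 459 and 528 for IRF1, the member with the most such rows. With rho in place of r over all 9 lines, the counts were 359 and 449 for IRF8, against 328 and 433 for IRF1, the next highest member. The rows most like IRF8 were ENSG00000106546 (r = 0.95) and ENSG00000137642 (r = 0.94), given as a description over 9 lines that share their libraries. ENSG00000106546 had a log2 value of 8.01 in Asia and between 9.53 and 10.20 elsewhere. ENSG00000137642 had 8.76 in Asia and between 11.18 and 12.36 elsewhere, with its maximum, like that of IRF8, in Khao. Without Asia their r with IRF8 was 0.64 and 0.57, so the likeness rested largely on that line.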

How the data were processed

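RNA from 9 lymphoblastoid lines was purified with an RNeasy Mini kit and made into Illumina TruSeq libraries, per the labels' protocols. DESeq2, edgeR, STAR and Trimmomatic are named in the submitters' processing notes, without role or version. Genome build, annotation, strand setting and normalization were not given in the sources used here. The values deposited by the authors were treated as log2 expression, from 0.71 to 18.66, with the base assumed. If the transformation shrank differences in low rows, folds there are understated. The header lacks the tab between its last names (Ricky and Vok), which a space separates. Read at any white space, it gave 9 names that matched the lines, and 0 columns were left unused.

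Rows averaging 1 ppm or more were kept. Variances were tested with limma 3.58.1 (R 4.3.3) with a robust, level-dependent prior, threshold 0.05, after testing on simulated data. Correlations used all 362880 pairings of the lines (Python 3.11.15, numpy 2.4.6). Their adjustment ran over all member-row relations, in place of the planned 21 pairs. The limma p sets the variance of a row against that of other rows, and the permutation p measures association between rows over the lines. Each line was measured once, so neither p separates the spread between lines from measurement error. The members, the lists and the comparisons were chosen with earlier results of these data known. All 8 members were to be named, with the rows most like each by r; identifiers are printed for IRF8, the member with the widest range. Of the 15356 identifiers, 0 matched the 33914 genes of the RefSeq table, so lists given by symbol were not used. The alternatives were other scalings, a pseudocount, filters, a prior without trend, Spearman's rho and leaving out each line.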

Additional observations from a re-analysis of the deposited data

Results flagged for a closer look

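Of 9 sets of values checked for an outlying line (7 members and 2 within-line differences), 2 had one; chance flags about 1 in 20 independent sets, the same criterion named a line in 10.1% of all kept rows, and these 2 sets share the values of IRF8. IRF8 stood out because its level of 8.31 log2 units in Asia lay far from the other lines, which began at 10.62. The difference of IRF4 minus IRF8 stood out because it was 6.41 log2 units in Asia, against at most 4.33 in the other lines. A further within-line difference, IRF5 minus IRF8, was not among the 9 sets and also had an outlying line by the same criterion. It was 1.70 log2 units in Asia, against -2.12 to -0.25 in the other lines, and it too shares the values of IRF8.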

How the results depend on the processing

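The variance test called 0 members, the lines spanned 2-fold or more in 1 member, and 0 member pairs passed the adjusted correlation test under every scaling, pseudocount, filter, prior, measure and left-out line tried for them. The variance test has little power at this spread of variances, so its 0 says nothing about stability. The adjusted correlation test has little power with so few lines, so its 0 does not show that members are unrelated. With a filter at 5 ppm, IRF9 was no longer tested. The unadjusted limma p of IRF8 lay between 0.0101 and 0.0208 with Asia kept and was 0.117 without Asia, and its adjusted p lay between 0.891 and 0.921. Between 0 and 2 pairs had an unadjusted exact permutation p under 0.05. The number of members with an outlying line, 1 in all lines, lay between 0 (without Asia) and 2 (without Khao or without Vok, where IRF9 joined IRF8) when a line was left out. The range of IRF8 was 1.19 log2 units without Asia, against 3.49 with it. The range of IRF1 was 0.55 log2 units without China, against 0.82 with it. The rescalings keep the median of all kept rows nearly unchanged by construction (largest shift 0.00047 log2 units), so this is no check of the scaling. The order of members per coding length and the difference of IRF3 and IRF7 were not run, since no protein lengths and no IRF7 values were at hand. No paired analysis was possible because the samples form 1 group. With the depth unknown, counting error in IRF9 could not be separated from the spread between lines.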
